A study of Mus musculus with 8 samples.

Results

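Genes of sterol and fatty acid synthesis, most of them targets of the SREBP transcription factors, were examined in adipose tissue macrophages (ATMs) from obese and lean mice. The list holds 33 genes chosen by symbol, 21 of a sterol branch and 12 of a fatty acid branch, and 32 of them had a probe set annotated with exactly 1 symbol, among 18820 such genes on the array. Acsl3, an acyl-CoA synthetase of the fatty acid branch, had no such probe set and was not analysed here. ATMs were taken from epididymal adipose tissue of wild-type male C57Bl/6 mice with magnetic beads against the surface protein that Adgre1 (Emr1) encodes, a macrophage marker. Each of 4 separate experiments gave 1 array from mice on a lard-based high-fat diet (HFD, obese) and 1 array from mice on a low-fat diet (LFD, lean), and each array measured RNA pooled from several mice. The HFD supplied 45 kcal% as fat in experiments 1 and 3 and 60 kcal% in experiments 2 and 4, and the LFD supplied 10 kcal% in all 4. By the labels, the diets lasted 16, 15, 16 and 10 weeks in experiments 1, 2, 3 and 4. The study's text gives a single feeding time and names a separate LFD formula matched to each HFD. Fat content, LFD formula, length of feeding and experiment therefore cannot be told apart. Levels are log2 array signals, a difference is the HFD level minus the LFD level, and levels of different genes cannot be compared because each probe set has its own brightness. In bulk RNA of this kind, fewer cells that express a gene and less RNA of that gene per cell cannot be told apart.

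Cells make cholesterol from acetyl-CoA through mevalonate, isoprenoids, squalene and lanosterol, and make fatty acids from the same acetyl-CoA through malonyl-CoA, followed by elongation and desaturation. SREBP proteins wait in the membrane of the endoplasmic reticulum, bound to the escort protein Scap. When sterols are scarce, Scap carries them to the Golgi, where proteases release the part that enters the nucleus and switches on these genes, and when sterols are plentiful, Insig proteins hold Scap back. SREBP-2, the product of Srebf2, acts mainly on the sterol branch, and SREBP-1c, a product of Srebf1, mainly on the fatty acid branch. In macrophages sterol intermediates also activate LXR, a nuclear receptor that induces cholesterol efflux genes and Srebf1.

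Most of the sterol branch had higher levels in obese pools in 3 of the 4 experiments. Its 21 members had a median difference of 0.16, against 0.0049 over all genes, and the median was 0.19, 0.30, 0.44 and -0.02 in experiments 1, 2, 3 and 4. It was 0.29 without experiment 1 and 0.35 without the LFD pool of experiment 4, and 0.15 to 0.35 over all 8 ways to leave out 1 array. The fatty acid branch had no common direction. Its 11 measured members had a median difference of -0.06, with medians of -0.35, 0.08, 0.04 and -0.52 in the same order. Its sign depended on single arrays, since the median was 0.05 without experiment 1, 0.08 without experiment 4, and -0.34 (without the HFD pool of experiment 1) to 0.10 (without the LFD pool of experiment 1) with 1 array left out, and was also above 0 without the HFD pool of experiment 2 (0.0046) or 4 (0.08). Scd1 and Fasn, a desaturase and the fatty acid synthase, were lower in obese pools in all 4 experiments. No gene of the array passed an adjusted p under 0.05 in limma without a block. The members called, 0 in either direction, matched a background of 0 (0% of 18820 genes). The smallest adjusted p was 0.982 both over all genes and among the members. With experiment as a block, which compares the arrays within experiments, 0 genes passed again. The smallest adjusted p of that limma fit was 0.0508 over all genes and 0.222 among the members.

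Both arrays of experiment 1 stood apart from the other arrays. Mean levels of 8 macrophage markers were 8.89, 10.40, 10.35 and 10.12 in HFD pools of experiments 1 to 4, against 7.51, 10.33, 10.59 and 10.04 in LFD pools. Adgre1, the marker used for selection, had levels of 8.58, 10.70, 10.67 and 10.19 in HFD pools and 6.54, 10.27, 10.95 and 9.95 in LFD pools, lowest in both pools of experiment 1. Mean levels of 18 endothelial markers were 10.10, 7.54, 7.59 and 7.24 in HFD pools and 10.44, 8.40, 5.63 and 8.90 in LFD pools, and were highest in both pools of experiment 1. None of the 8 macrophage or the 18 endothelial markers was dim, below a linear value of about 20, on every array (0 in each list). Array medians lay between 4.25 and 4.39.

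**Figure D1:**
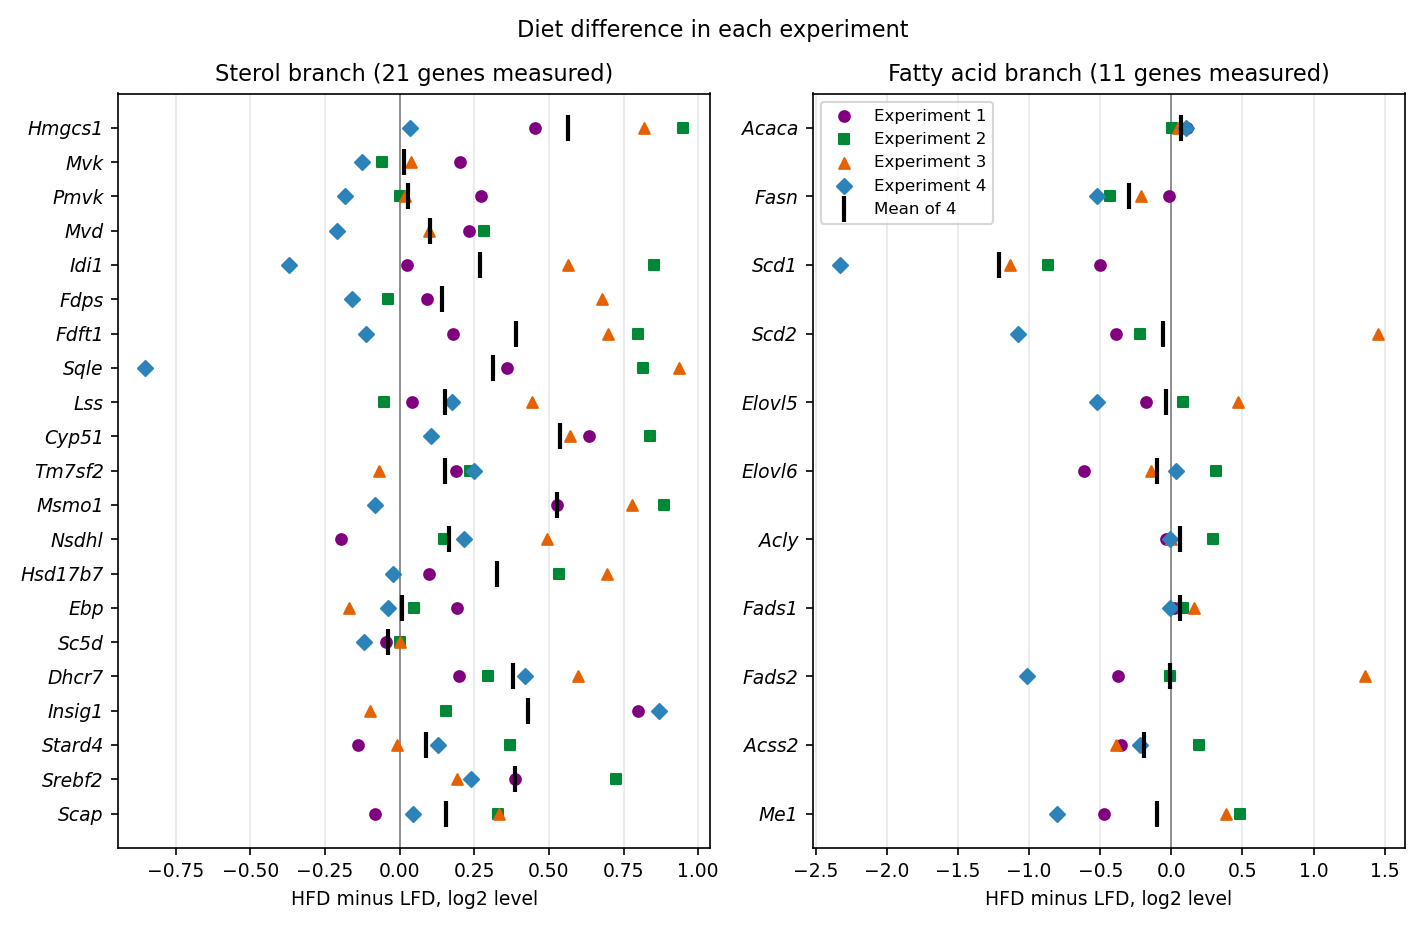
HFD minus LFD in each of the 4 experiments (coloured symbols, log2) for the 21 sterol branch members on the left and the 11 measured fatty acid branch members on the right, with the mean of the 4 as a black bar. Hmgcs1, Cyp51, Dhcr7, Srebf2 and Acaca (the last not after median centring) lie right of 0 in all 4 experiments, and Fasn and Scd1 left of 0.

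Promoter windows are shown for the genes on which the diet comparison turned, because SREBP acts at sterol regulatory elements that lie close to a CCAAT box bound by NF-Y. RefSeq windows on GRCm38.p6, each from 250 bases before to 50 bases after an annotated start, were given for 26 of the 33 members in 31 windows. Motifs were searched on both strands: TCACNCCAC as the core of a sterol regulatory element, CCAAT as the NF-Y box, and CACGTG as an E-box, which SREBP can also bind. The windows of Hmgcs1, Cyp51, Srebf2 and Fasn follow 5′ to 3′ along the gene, with the letters of TCACNCCAC and CCAAT matches, or their reverse complements, in capitals.
Hmgcs1, chr13:119690101-119690400, plus strand: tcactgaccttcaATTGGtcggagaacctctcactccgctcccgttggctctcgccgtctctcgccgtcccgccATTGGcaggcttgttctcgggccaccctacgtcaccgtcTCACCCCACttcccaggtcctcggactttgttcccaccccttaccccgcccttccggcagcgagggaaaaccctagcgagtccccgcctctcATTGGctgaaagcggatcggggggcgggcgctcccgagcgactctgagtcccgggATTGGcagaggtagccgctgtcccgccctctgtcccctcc
Cyp51, chr5:4104648-4104947, minus strand: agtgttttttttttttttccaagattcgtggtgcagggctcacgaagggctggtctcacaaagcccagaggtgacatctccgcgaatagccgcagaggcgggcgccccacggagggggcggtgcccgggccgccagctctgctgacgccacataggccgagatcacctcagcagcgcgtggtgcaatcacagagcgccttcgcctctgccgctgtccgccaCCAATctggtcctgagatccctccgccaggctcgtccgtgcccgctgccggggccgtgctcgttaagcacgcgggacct
Srebf2, chr15:82147019-82147318, plus strand: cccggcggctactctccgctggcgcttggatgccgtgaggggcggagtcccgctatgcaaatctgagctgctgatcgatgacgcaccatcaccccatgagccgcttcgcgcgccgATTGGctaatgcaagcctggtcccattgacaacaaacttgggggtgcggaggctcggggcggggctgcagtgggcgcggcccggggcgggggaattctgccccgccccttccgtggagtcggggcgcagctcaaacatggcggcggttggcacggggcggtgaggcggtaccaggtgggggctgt
Fasn, chr11:120824498-120824797, minus strand: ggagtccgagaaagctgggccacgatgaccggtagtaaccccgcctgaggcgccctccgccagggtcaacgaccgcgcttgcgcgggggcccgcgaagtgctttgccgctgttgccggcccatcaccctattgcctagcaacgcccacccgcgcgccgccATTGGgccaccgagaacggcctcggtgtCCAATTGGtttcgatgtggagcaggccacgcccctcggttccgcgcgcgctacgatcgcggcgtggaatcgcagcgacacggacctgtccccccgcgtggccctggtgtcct

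The Hmgcs1 window held the TCACNCCAC letters at bases 114 to 122 and 4 CCAAT matches, all 4 as the reverse complement. The Cyp51 and Srebf2 windows held 1 CCAAT match each, and the Fasn window held 3, of which the last 2 overlap at bases 189 to 193 and 192 to 196. Across the sterol branch, CCAAT occurred in a window of 16 of 17 genes, including all 14 enzymes with a window, and Scap was the gene without it. In the fatty acid branch it occurred in 6 of 9 genes, against 37.4% of all 32851 windows and 41.9% of the measured genes with a window. TCACNCCAC occurred in 1 of 17 sterol genes (Hmgcs1) and in 0 of 9 fatty acid genes, against 1.42% of the measured genes with a window and 1.24% of all windows. CACGTG occurred in 5 of 17 and 1 of 9 genes, against 9.57% of those genes and 7.15% of windows. These are matches of letters only, and a window without a match says nothing about binding.

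Hmgcs1 encodes the cytosolic HMG-CoA synthase, which feeds the mevalonate pathway. Its level was 7.12, 7.06, 7.17 and 7.28 in HFD pools of experiments 1 to 4, against 6.67, 6.11, 6.36 and 7.25 in LFD pools. The obese pools lay within a narrow band, whereas the lean pools spread widely, and the groups overlapped because the lean pool of experiment 4 reached the obese band. The mean was 7.16 ± 0.09 in HFD pools and 6.60 ± 0.49 in LFD pools (SD, n = 4 pools each), a difference of 0.56 (SE 0.23), or 1.48-fold (limma, adjusted p = 0.982).

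At the next steps of the pathway the mean differences were smaller. Mvk and Pmvk, the kinases that phosphorylate mevalonate, and Mvd, the decarboxylase that makes isopentenyl diphosphate, had mean differences of 0.01, 0.03 and 0.10. Idi1, which isomerises isopentenyl diphosphate, was higher in obese pools in experiments 1, 2 and 3 (0.03, 0.85 and 0.56) and lower in experiment 4 (-0.37). Its other probe set gave 0.0066, 0.98, 0.57 and -0.51 in the same order. Fdps, which makes farnesyl diphosphate, differed by 0.14 on average, from -0.16 in experiment 4 to 0.68 in experiment 3.

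The enzymes that form and oxidise squalene were higher in obese pools in experiments 1, 2 and 3 and lower in experiment 4. Fdft1, squalene synthase, differed by 0.18, 0.80, 0.70 and -0.11 in experiments 1 to 4. Sqle, squalene epoxidase, had levels of 5.60, 5.65, 5.71 and 5.65 in HFD pools and 5.24, 4.83, 4.77 and 6.50 in LFD pools. The lean pool of experiment 4 was the highest of the 8 arrays and the other 3 lean pools were the lowest, so the mean of 5.65 ± 0.04 in obese pools, against 5.34 ± 0.80 in lean pools (SD, n = 4 pools each), hides opposite differences. Lss, which closes squalene oxide to lanosterol, differed by 0.15 on average.

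Cyp51, the lanosterol demethylase, had the smallest p of the sterol branch. Its level was 6.16, 6.57, 6.47 and 6.27 in HFD pools and 5.53, 5.73, 5.90 and 6.16 in LFD pools. Every obese pool was above the lean pool of its own experiment, and the groups met at the lean pool of experiment 4 and the obese pool of experiment 1, whose deposited values were identical. The difference was 0.54 (SE 0.15), or 1.45-fold (limma, adjusted p = 0.982).

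Msmo1, the methylsterol oxidase that acts after Cyp51, had levels of 7.34, 8.07, 8.15 and 8.10 in HFD pools and 6.81, 7.18, 7.37 and 8.18 in LFD pools. Obese pools were higher in experiments 1, 2 and 3, while in experiment 4 both pools were high and almost equal. Hsd17b7, the 3-keto reductase of the same demethylation steps, had levels of 5.69, 5.85, 5.93 and 5.91 in HFD pools, against 5.59, 5.31, 5.24 and 5.93 in LFD pools. The lean pool of experiment 4 again lay with the obese pools, and the difference was 0.33 (SE 0.16; limma, adjusted p = 0.982). Nsdhl, the dehydrogenase of these steps, was lower in the obese pool of experiment 1 (-0.20) and higher in the other 3. Tm7sf2, a sterol reductase, was dim on 3 arrays and differed by 0.15.

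Dhcr7, the reductase that makes cholesterol in the last step of one route, was higher in obese pools in all 4 experiments. Its level was 6.32, 6.83, 7.32 and 7.14 in HFD pools, against 6.13, 6.53, 6.72 and 6.72 in LFD pools. The groups overlapped because both pools of experiment 1 were low, and the differences within experiments were 0.20, 0.30, 0.60 and 0.42. The mean was 6.90 ± 0.44 in HFD pools and 6.53 ± 0.28 in LFD pools (SD, n = 4 pools each), a difference of 0.38 (SE 0.24; limma, adjusted p = 0.990). With experiment as a block the SE was 0.10 (limma, adjusted p = 0.224). Ebp, a sterol isomerase, and Sc5d, a sterol desaturase, differed by 0.01 and -0.04. Sc5d took only 4 distinct values on the 8 arrays, because the deposited values of some probe sets are identical between arrays, as they were for 44.4% of all genes.

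**Figure D2:**
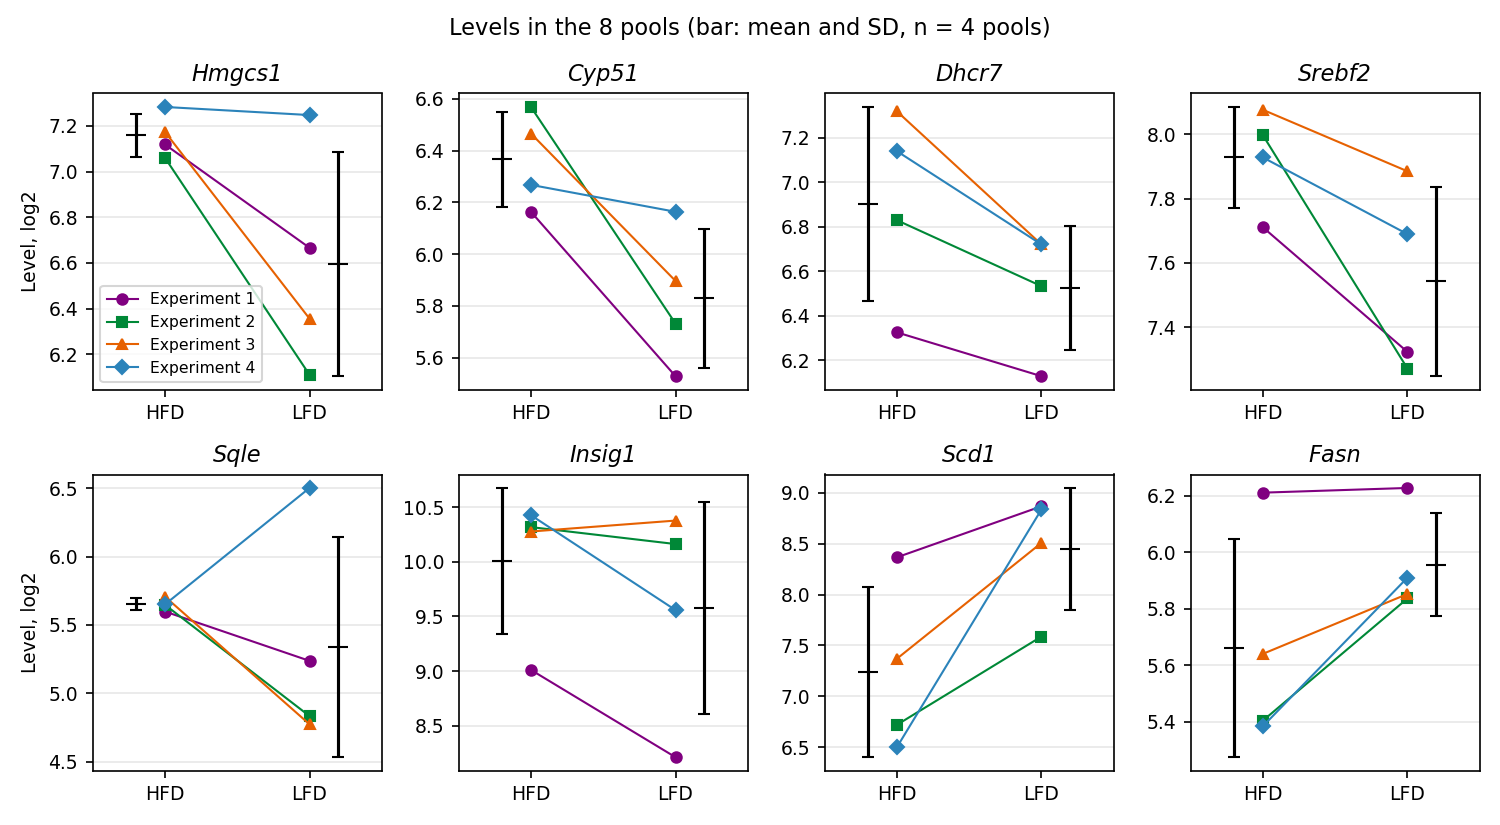
Levels (log2) of 8 members in the HFD and LFD pools of each experiment, joined by a line within an experiment, with the mean and SD of the 4 pools beside them; each panel has its own scale, which does not start at 0. The lean pool of experiment 4 lies with or above the obese pools for Hmgcs1 and Sqle, and in each experiment the HFD pool is above the LFD pool for Cyp51, Dhcr7 and Srebf2 and below it for Scd1 and Fasn.

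Among the regulators, Srebf2 was higher in obese pools in all 4 experiments. Its level was 7.71, 8.00, 8.08 and 7.93 in HFD pools and 7.32, 7.27, 7.89 and 7.69 in LFD pools. Only the lean pool of experiment 3 reached the range of the obese pools, and the difference was 0.39 (SE 0.16), or 1.31-fold (limma, adjusted p = 0.982). Scap had levels of 7.04, 7.03, 7.03 and 7.00 in HFD pools and 7.12, 6.70, 6.70 and 6.95 in LFD pools. The obese pools were almost equal, with an SD of 0.02 against 0.21 in lean pools, and the lean pool of experiment 1 was the highest array.

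Insig1, which encodes the Scap-retaining protein and is itself an SREBP target, had levels of 9.01, 10.32, 10.28 and 10.43 in HFD pools, against 8.21, 10.16, 10.38 and 9.56 in LFD pools. Both pools of experiment 1 were low, as they were for the macrophage markers. The difference was 0.43 (SE 0.52), positive in experiments 1, 2 and 4 and -0.10 in experiment 3. With experiment as a block the SE was 0.19 (limma, adjusted p = 0.458). Stard4, a cytosolic sterol carrier, differed by 0.09 on average.

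Counted together, 17, 16, 17 and 10 of the 21 sterol members (81.0%, 76.2%, 81.0% and 47.6%) were higher in obese pools in experiments 1, 2, 3 and 4, against 45.8%, 53.6%, 43.1% and 52.6% of all genes, and 2, 7, 6 and 2 of the 11 fatty acid members were. Differences of 0.5 or more, a 1.41-fold change, were measured in 3, 8, 9 and 1 members on the higher side, against 5.69%, 9.73%, 9.12% and 7.43% of all genes, and in 0, 0, 0 and 1 members on the lower side, against 4.33%, 5.24%, 7.01% and 7.9%. Of the 11 fatty acid members, 0, 0, 2 and 0 were higher by that much, and 2, 1, 1 and 6 were lower. These are differences between single arrays and carry no test. In experiments 1, 2 and 3 together, 10 of 21 sterol members and 2 of 11 fatty acid members were higher in every one, against 14.4% of all genes. Experiment 4 was left out of this count after its values had been seen. Over all 4 experiments the counts were 4 sterol members and 1 fatty acid member, Acaca (not after median centring), against 11% of genes. In the other direction they were 0 and 2, against 7.43% of genes. Centring each array on its median moved every difference by -0.07, -0.07, -0.16 and 0.08 in experiments 1 to 4. The sterol medians were then 0.13, 0.23, 0.29 and 0.06, against -0.07, -0.04, -0.17 and 0.10 over all genes, and the fatty acid medians -0.42, 0.02, -0.11 and -0.44, so that the sterol median of experiment 4 and the fatty acid median of experiment 3 changed sign. After centring, Hsd17b7 joined the sterol members higher in all 4 experiments (5, against 6.23% of genes), Acaca left those of the fatty acid branch (0), and Sc5d was lower in all 4 beside Scd1 and Fasn (against 12.3% of genes). No member of either branch had all obese pools above all lean pools (1.19% of genes did) or below them (0.68%).

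At an unadjusted p under 0.05 in the limma fit, 3 sterol members (Hmgcs1, Cyp51 and Srebf2) were higher, against 3.3% of all genes, and 1 fatty acid member (Scd1) was lower, against 1.51%. With experiment as a block, 5 sterol members were higher, Msmo1 and Dhcr7 in addition, against 7.95% of genes. In that fit 2 fatty acid members, Fasn and Scd1, were lower, against 4.16%. Adjusted p values with the block were 0.223 or more in the sterol branch and 0.222 or more in the fatty acid branch. The block fit without experiment 1 had 3 sterol members higher (Hmgcs1, Cyp51 and Dhcr7), against 7.15% of genes. Block fits without another experiment were added after the data had been seen. Without experiment 2 there were 3, against 4.83%, and without experiment 3 there were 4, against 8.32%. Without experiment 4, where the sterol median was lowest, there were 8, against 5.69%. These were Hmgcs1, Fdft1, Sqle, Cyp51, Msmo1, Hsd17b7, Dhcr7 and Srebf2.

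**Figure D3:**
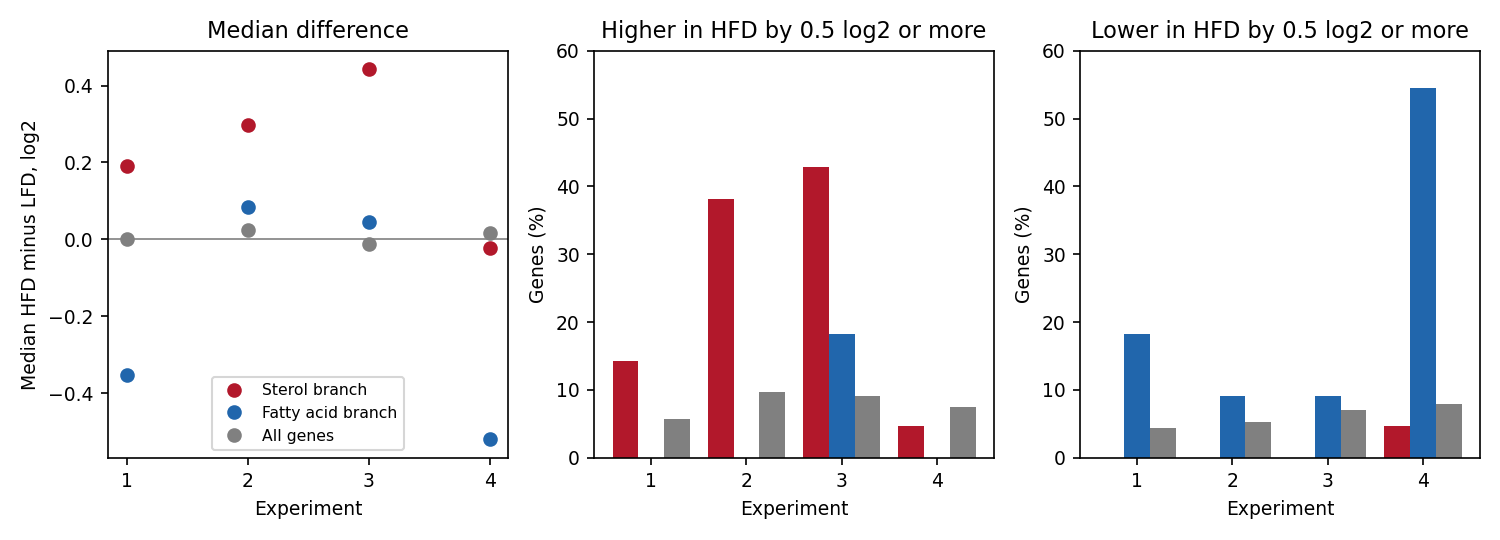
Median HFD minus LFD (log2) of the sterol branch, the fatty acid branch and all genes in each experiment on the left, and the share of each (%) that was higher or lower in the obese pool by 0.5 log2 or more in the middle and on the right. The sterol median is above that of all genes in experiments 1, 2 and 3 and close to 0 in experiment 4, where 6 of 11 fatty acid members were lower by 0.5 or more.

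In experiment 4, which had the shortest diet, the lean pool was as high in sterol genes as the obese pools. The mean level of the 21 sterol members was 6.16, 6.34, 6.51 and 6.41 in HFD pools of experiments 1 to 4 and 5.95, 5.95, 6.15 and 6.40 in LFD pools. The lean pool of experiment 4 was the highest lean array for 12 of the 21 members and the highest of all 8 arrays for 7. In the fatty acid branch both counts were 0. The shares of all genes were not computed, so these counts cannot show a trait of the sterol genes. The diet difference in experiment 4 minus that in experiments 1 to 3 was below 0 at an unadjusted p under 0.05 for 3 sterol members (Sqle, Cyp51 and Msmo1) and 1 fatty acid member (Scd1), against 2.01% of all genes. For Sqle it was -1.56 and for Scd1 -1.50, and neither passed over all genes (limma interaction, adjusted p = 0.963). This contrast was chosen after the values of experiment 4 had been seen. Between fat contents, the diet difference at 60 minus 45 kcal% passed an unadjusted p under 0.05 in 0 members of either branch, against 3.95% of genes.

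Most sterol members varied less among obese than among lean pools, as did most genes of the array. The SD was lower in HFD than in LFD pools for 18 of 21 sterol members and 7 of 11 fatty acid members, against 65.5% of all genes, and without experiment 1 for 17 and 7, against 65.8%. The count was not made without experiment 4, whose lean pool was the highest lean pool for Hmgcs1, Sqle and Hsd17b7. The SD was 0.09 in HFD pools and 0.49 in LFD pools for Hmgcs1, 0.04 and 0.80 for Sqle, and 0.11 and 0.31 for Hsd17b7. It was larger in HFD pools for the other 3 sterol members, Dhcr7 (0.44 and 0.28), Lss (0.34 and 0.18) and Nsdhl (0.29 and 0.10), and the fatty acid count lay at the share of all genes, with larger SDs in HFD pools for Scd1 (0.84 and 0.60) and Fasn (0.38 and 0.18).

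In the fatty acid branch, Scd1 had the largest difference. Scd1 encodes stearoyl-CoA desaturase, which makes oleate and palmitoleate, and it has close paralogs on the array, so that its probe set may take up their signal. Its level was 8.36, 6.72, 7.37 and 6.50 in HFD pools, against 8.87, 7.59, 8.51 and 8.83 in LFD pools. Each obese pool was below its own lean pool, with differences of -0.50, -0.87, -1.14 and -2.33, and the groups overlapped at the obese pool of experiment 1 and the lean pool of experiment 2. The mean was 7.24 ± 0.84 in HFD pools and 8.45 ± 0.60 in LFD pools (SD, n = 4 pools each), a difference of -1.21 (SE 0.46), or 2.31-fold higher in lean pools (limma, adjusted p = 0.982).

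Fasn, which builds palmitate from malonyl-CoA, had levels of 6.21, 5.40, 5.64 and 5.38 in HFD pools and 6.23, 5.84, 5.85 and 5.91 in LFD pools. Outside experiment 1, where both pools were high and equal within 0.02, all obese pools were below all lean pools, and the difference was -0.30 (SE 0.20; limma, adjusted p = 0.990). Acaca, the carboxylase that makes malonyl-CoA, had levels of 6.38, 6.06, 6.08 and 6.01 in HFD pools and 6.27, 6.06, 6.04 and 5.91 in LFD pools. Its differences of 0.11, 0.0033, 0.04 and 0.10 were small beside the spread between experiments, and its other probe set was lower in the obese pool of experiment 4 (-0.15).

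The enzymes that supply acetyl-CoA differed little between diets. Acly, ATP citrate lyase, had levels of 8.03, 8.08, 8.03 and 7.95 in HFD pools and 8.07, 7.79, 8.03 and 7.96 in LFD pools, equal within 0.04 in all but experiment 2. Acss2, which makes acetyl-CoA from acetate, had levels of 5.03, 4.68, 4.21 and 4.44 in HFD pools, against 5.39, 4.49, 4.60 and 4.65 in LFD pools. It was lower in obese pools in 3 of 4 experiments, by 0.19 on average (SE 0.24; limma, adjusted p = 0.999).

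Scd2, Fads2, Elovl5 and Me1 did not keep 1 sign between experiments. Scd2, a second stearoyl-CoA desaturase, had differences of -0.39, -0.22, 1.45 and -1.08 in experiments 1 to 4. Fads2, the delta-6 desaturase of polyunsaturated fatty acids, had differences of -0.38, -0.01, 1.36 and -1.01. Elovl5, their elongase, had -0.18, 0.08, 0.47 and -0.52, and Me1, a malic enzyme that supplies NADPH, had -0.47, 0.48, 0.38 and -0.81. In all 4 genes the obese pool was higher in experiment 3 and lower in experiments 1 and 4. Fads1, the delta-5 desaturase, and Elovl6, the elongase of palmitate, had mean differences of 0.06 and -0.10.

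Markers of other cells shared the sign of some genes of both branches in some experiments. The mean of the 18 endothelial markers differed by -0.34, -0.86, 1.96 and -1.66 between obese and lean pools in experiments 1 to 4, the same signs as for Scd2 and Fads2, and 0 of the 18 had 1 sign throughout. It ranged over pools from 7.24 to 10.10 in obese mice and from 5.63 to 10.44 in lean mice. Mean levels of the 11 measured adipocyte markers of 12 listed ranged from 5.87 to 6.96 in HFD pools and from 6.05 to 6.76 in LFD pools, with 2 markers higher and 3 lower in all 4 experiments. Adig, an adipocyte gene, was dim on every array. Retn, which encodes resistin of mouse adipocytes and was singled out after its values were seen, had levels of 6.30, 4.03, 5.04 and 4.29 in HFD pools and 6.73, 6.22, 6.25 and 7.36 in LFD pools. Its differences of -0.42, -2.19, -1.20 and -3.07 had the sign of those of Scd1 in all 4 experiments, as had those of Lipe and Adig. The 2 markers higher in all 4 went the other way. They were Lep, which encodes leptin (0.73, 0.19, 0.39 and 0.50), and Lpl, which macrophages also express (1.55 on average). The 10 fibroblast markers had mean differences of -0.01, 0.77, 1.27 and -0.47. The squalene enzymes Fdft1 and Sqle, compared after their values were seen, had the same signs in experiments 2, 3 and 4. In experiment 1 they were higher in the obese pool, by 0.18 and 0.36. The mean level of the fibroblast markers ranged from 7.10 to 8.69 in HFD pools, where Sqle ranged from 5.60 to 5.71. In LFD pools it ranged from 5.83 to 7.93 for the markers and from 4.77 to 6.50 for Sqle. Col1a1 and Col3a1, collagen genes of the list, were higher in all 4 experiments (1.00 and 1.03 on average). The 8 mesothelial markers had mean differences of -0.02, 0.47, 0.03 and -0.60, with mean levels from 3.97 to 4.63 in HFD pools and from 3.94 to 4.59 in LFD pools. The 4 measured B cell markers of 5 listed had mean differences of -0.24, -0.25, -0.51 and -0.46, with 3 of them dim on every array, and 3 of the 5 measured T cell markers of 6 listed were also dim on every array (mean differences -0.04, 0.10, -0.21 and -0.07). The part of adipocyte, endothelial, fibroblast or other RNA in the values of either branch was not tested.

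**Figure D4:**
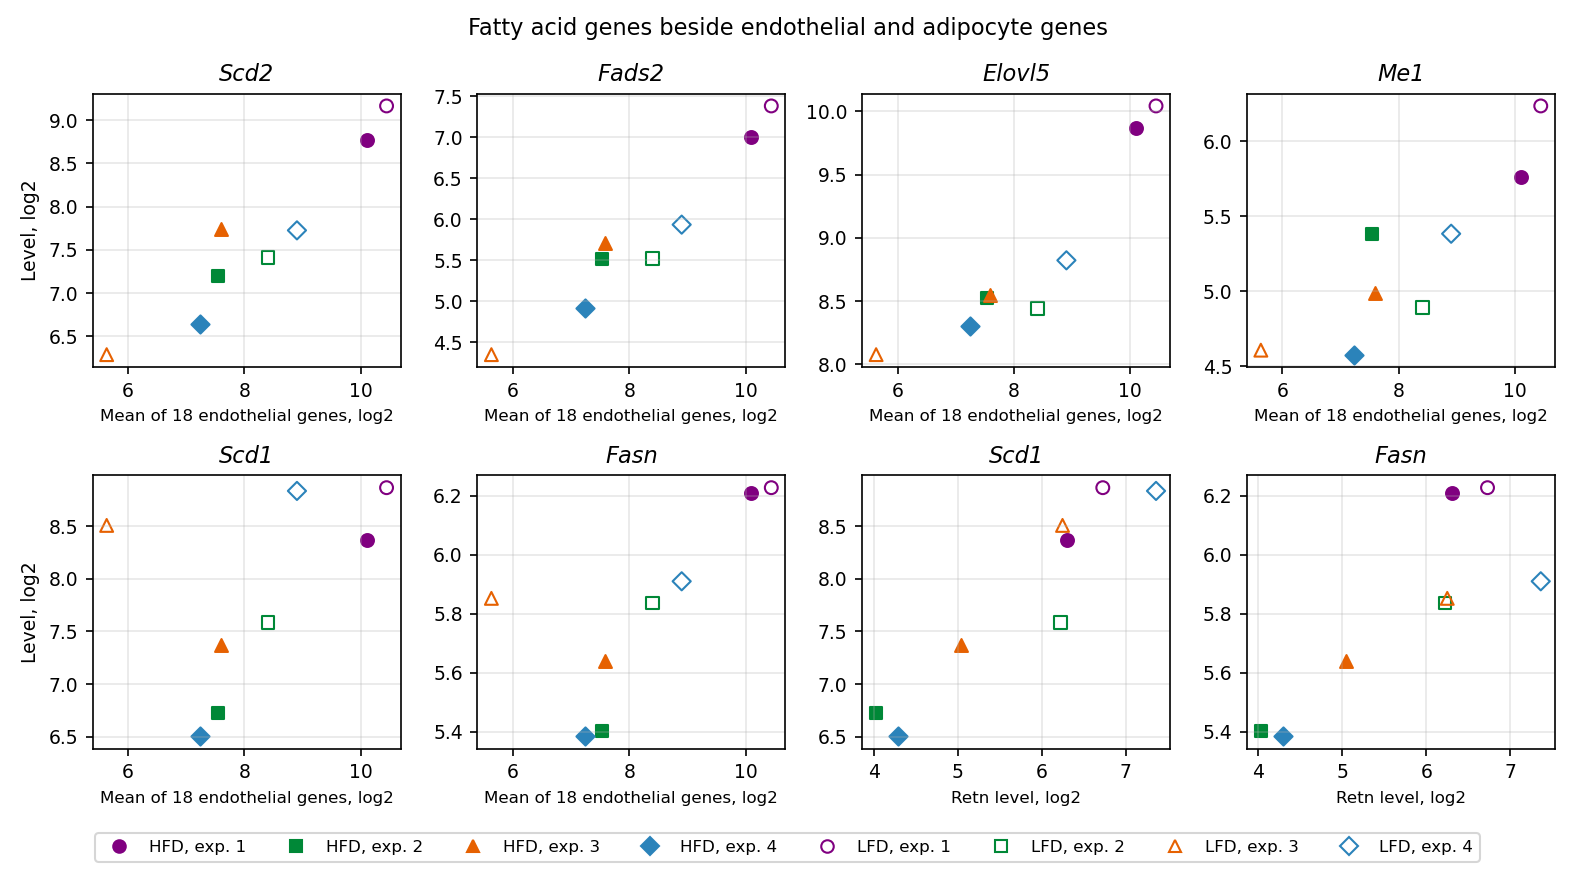
Levels (log2) of Scd2, Fads2, Elovl5, Me1, Scd1 and Fasn on the 8 arrays against the mean level of 18 endothelial genes, and of Scd1 and Fasn against the level of Retn (last panels of the bottom row); filled symbols are HFD pools and open symbols LFD pools, with 1 shape per experiment. Scd2, Fads2, Elovl5, Me1 and Fasn are highest in the pools of experiment 1. These pools also have the highest endothelial means (10.10 in the HFD pool and 10.44 in the LFD pool). Scd1 is highest in the LFD pool of experiment 1, but the HFD pool of that experiment lies below the LFD pools of experiments 3 and 4.

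Other genes of the pathway gave no common direction either. Of 8 further sterol and isoprenoid enzymes 4 were measured, and 0 were higher in all 4 experiments. With experiment as a block 2 of the 4 were lower at an unadjusted p under 0.05, against 0 without it. Lbr, the lamin B receptor that also acts as a sterol reductase, was lower in all 4 (-0.45, -0.38, -0.32 and -0.92), as was Ggps1, which makes geranylgeranyl diphosphate (-0.30, -0.04, -0.30 and -0.24), and these were the 2 (limma with the block, adjusted p = 0.214 for Lbr and 0.387 for Ggps1). Among 8 measured of 12 genes of SREBP processing and sterol uptake, only Srebf1 kept 1 sign, with differences of 0.15, 0.27, 0.52 and 0.32 and a mean of 0.31 (SE 0.10; limma, adjusted p = 0.982). Its level was 6.70, 6.54, 6.83 and 6.63 in HFD pools, against 6.55, 6.27, 6.31 and 6.32 in LFD pools. The lean pool of experiment 1 alone reached the obese range. Insig2, the second retention protein, and Mbtps1, the first protease, differed by -0.11 and 0.01.

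Of 30 further fatty acid genes 29 were measured, 8 of them dim on every array, and 0 passed an unadjusted p under 0.05. With the block 2 were higher, Hsd17b12 and Hacd2, a dehydratase of elongation, and 1 was lower, Thrsp (limma, adjusted p = 0.125, 0.365 and 0.291). Hsd17b12, a ketoacyl-CoA reductase of elongation, was higher in all 4 experiments (0.41, 0.96, 0.54 and 0.65), as were Elovl1, an elongase of very long chains (0.14 on average), and Pnpla3, a lipid droplet hydrolase (0.10), which was dim on all 8 arrays. Thrsp, a lipogenic protein of adipocytes and liver, was lower in all 4 (-0.70, -1.94, -0.11 and -2.10), and Mid1ip1, its paralog, by 0.12 on average. Among the 8 measured of 10 LXR target genes, 4 were higher in all 4 experiments and at an unadjusted p under 0.05, against 11% and 3.3% of all genes. They were Abcg1, a cholesterol exporter (1.01, SE 0.36), Nr1h3, which encodes LXR alpha (0.81, SE 0.29), Smpdl3a, a phosphodiesterase (0.64, SE 0.23), and Srebf1. Nr1h3 was the only one of them with all obese pools above all lean pools, at 7.00, 7.04, 7.52 and 7.72 in HFD pools and 6.91, 5.79, 6.44 and 6.91 in LFD pools. Abca1, the other main exporter, and Apoe, a carrier of effluxed lipid, differed by -0.04 and -0.11.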

How the data were processed

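The authors deposited log2 values of 8 arrays, for which the submitters' notes list RMA without a version. RMA corrects background, quantile normalises arrays and summarises probes, so that it can pull small differences towards 0 and reduces shifts common to all genes. Array medians of the deposited values still differed, from 4.25 to 4.39. Gene names came from the platform annotation, in which 21218 of 35556 features had 1 symbol, 1881 several and 12457 none. For 1386 of the 18820 genes the brightest of several probe sets was used, and 18790 genes were found in the RefSeq gene table.

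HFD and LFD arrays were compared in limma 3.58.1 (R 4.3.3) with Benjamini-Hochberg adjustment over all genes and a threshold of 0.05, because the study names Student's t test for 2 groups and leaves its array analysis to supplementary methods not used here. Samples were grouped by their labels. The experiment number in the labels pairs the arrays. Deviations from the diet means correlated between the HFD and LFD arrays of each experiment (Pearson r of 0.889, 0.357, 0.652 and 0.186 in experiments 1 to 4, across genes that are no independent replicates). Correlations between arrays of different experiments were not computed, so these values alone do not show the pairing. Blocked fits are quoted where they change a count of calls in a list described, for the smallest adjusted p, and for Dhcr7 and Insig1. P values without a block measure the spread between 4 pools per diet. With experiment as a fixed block, and in the interaction fits, they measure the spread of the differences within experiments. The number of arrays limits the precision. Probe sets under a log2 of 4.32 count as dim. 

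Members and lists were chosen with earlier results of these data known, and no list was tested. Values per array are given for members with 1 sign in all 4 experiments, for the 4 with the smallest p of each branch, and for Srebf2, Scap and Insig1. Those of Sqle and Msmo1, and the values of Scd2, Fads2, Elovl5, Me1, Idi1 and Fdft1 by experiment, were chosen after they were seen. Of other pathway genes, those with 1 sign throughout and up to 2 known others per list are named. Alternatives covered the block, left-out arrays and experiments, scaling, dim probe sets, probe set choice, variance model, each fat content separately and the methods' t-test. Genes measured by probe sets with several symbols are not reported here.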

Additional observations from a re-analysis of the deposited data

Results flagged for a closer look

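Among 64 groups of 4 pools (32 members by diet), 7 held 1 array far from the other 3, against 3.2 that chance gives at about 1 in 20. In HFD pools, experiment 1 stood apart for Msmo1 (7.34, the others 8.07 to 8.15), Insig1 (9.01, the others 10.28 to 10.43), Elovl5 (9.86, the others 8.30 to 8.55) and Sc5d (6.84, the others 6.88), and experiment 3 for Pmvk (5.92, the others 5.89). In LFD pools, experiment 1 stood apart for Fads1 (7.54, the others 8.18 to 8.30) and experiment 4 for Sc5d (7.00, the others 6.88). The Pmvk and Sc5d gaps were small because the other arrays held nearly identical values. Experiment 1 accounted for 5 of the 7.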

How the results depend on the processing

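No member passed an adjusted p under 0.05 in any setting run. Over all genes, 25 passed (23 higher, 2 lower, 0 members) with the block after dim probe sets were left out, and 0 in every other setting.

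At an unadjusted p under 0.05, the count of 905 genes became 2280 and 2123 with experiment as a fixed or random block, 1678 without experiment 1, 579 without experiment 4, 1961 with the block and without experiment 1, 193 at 45 kcal% alone and 2013 at 60 kcal% alone. In settings added after seeing the data, it was 1420, 2659 and 1642 with the block and without experiment 2, 3 or 4, and 1716 with the block after dim probe sets were left out. Single arrays left out gave 521 to 1456, with the lowest count without HFD replicate 3 and the highest without HFD replicate 1. Of the 905 genes 621 were higher and 284 lower, against 312 and 402 after median centring and 462 and 455 after repeated quantile normalisation.

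The 3 higher sterol members became 5 (fixed block, with or without dim probe sets), 6 (random block, or without experiment 4), 8 (block without experiment 4), 1 (the methods' t-test, or 45 kcal% alone) and 0 (60 kcal% alone). Single arrays left out gave 1 (without HFD replicate 2, 3 or 4 or LFD replicate 2) to 7 (without LFD replicate 4). The 1 lower fatty acid member became 2 with the fixed block, alone or without dim probe sets or experiment 1, 2 or 3, without experiment 1, and at 60 kcal% alone, and 0 without experiment 3 or 4, by the methods' t-test and at 45 kcal% alone. Single arrays left out gave 0 (without HFD replicate 2, 3 or 4 or LFD replicate 1, 3 or 4) to 2 (without HFD replicate 1). The test of 60 against 45 kcal% gave 743 genes, and 397 without dim probe sets.

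Of 312 values for 12 named members, 307 kept their sign, and no value passed the threshold in any setting. Fits that changed only the block, the variance model, the test or the dim filter left the difference itself unchanged. Its sign could not change there, so the count of 307 says little about stability. Acly turned to -0.019 at 45 kcal% alone and to -0.016 with the block without experiment 2. With single arrays left out, Acaca ranged from -0.016 (without HFD replicate 1) to 0.13, Insig1 from -0.025 (without LFD replicate 1) to 0.76, and Acss2 from -0.34 to 0.0098 (without LFD replicate 1). The cause was not tested.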
